A study of Bos taurus with 6 samples.

Results

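The 9 mature bovine miRNAs described here are relatives of the miR-17-92 cluster. They are bta-miR-106b, bta-miR-93 and bta-miR-25 of the miR-106b-25 cluster, bta-miR-106a, bta-miR-18b, bta-miR-20b and bta-miR-363 of the miR-106a-363 cluster, and bta-miR-92b and bta-miR-32, which share their seed with bta-miR-92a. They were chosen by name, with earlier results of these data known, and all 9 were among the 755 mature names of the count files. Granulosa cells, the somatic cells lining the inside of the follicle, came from synchronised Simmental heifers at day 19 of the estrous cycle. Small RNA was sequenced as 3 libraries of preovulatory dominant follicles, hereafter dominant follicles, and 3 of anovulatory subordinate follicles. All animals had received cloprostenol, a prostaglandin analogue, and buserelin, a gonadotropin-releasing hormone analogue, for synchronisation, and the follicles were classed by outer diameter, with no treatment that distinguished the groups. The authors pooled RNA to obtain the replicates, and far fewer dominant than subordinate follicles were available from the same animals. The spread between libraries is therefore that between pools, and the p-values measure no more than this.

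A miRNA guides silencing of mRNAs mainly through its seed, the short stretch near its 5′ end, so that miRNAs with the same seed are expected to bind overlapping sets of targets. The vertebrate genome carries the miR-17-92 cluster together with paralogous clusters that arose by duplication. bta-miR-106a, bta-miR-106b, bta-miR-93 and bta-miR-20b carry the seed of bta-miR-17-5p, bta-miR-18b carries that of bta-miR-18a, and bta-miR-25, bta-miR-363, bta-miR-92b and bta-miR-32 carry that of bta-miR-92a. The family is known for promoting proliferation and survival, with the cell cycle inhibitor CDKN1A and the pro-apoptotic protein BCL2L11 among its well-studied targets. In the RefSeq annotation of the ARS-UCD2.0 assembly, MIR106B, MIR93 and MIR25 lie next to each other within MCM7, which encodes a subunit of the replicative helicase. MIR32 lies within TMEM245, and MIR92B has no other miRNA gene within 1 kb. MIR106A, MIR18B, MIR20B and MIR363 lie together with MIR19B-2 and MIR92A-2, the second genes for miR-19b and miR-92a.

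With 1 value per mature miRNA, the depth was 190385 to 311842 reads for the dominant libraries and 306932 to 364125 for the subordinate ones. Levels are given as CPM, counts scaled to a common library size with TMM factors that allow for differences in composition, on which scale 3 reads, the limit that a count of 0 allows, are worth between 8.86 and 13.9 CPM. Differential expression was tested with edgeR's quasi-likelihood test over the 353 miRNAs detected (1 read or more) in 2 or more libraries of either group. A miRNA was called when the log2 fold change was at least 1 in size, p no larger than 0.05 and the FDR (false discovery rate) no larger than 0.1. Of all miRNAs tested, 42 were called higher in dominant follicles (11.9%) and 34 lower (9.63%), and without a composition factor the numbers were 47 and 23, or 67.1% of the calls higher in place of 55.3%. The median log2 fold change of all miRNAs tested was -0.20, and -0.01 without a composition factor. The granulosa cell markers bta-miR-202 and bta-miR-383 were present in every library, the latter with only 3 to 7 reads. bta-miR-202 had 45237 ± 1632 CPM in dominant and 13033 ± 1936 CPM in subordinate follicles (SD, n = 3 each).

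Among the 9 miRNAs, 7 entered the test, 1 was called higher in dominant follicles and 1 lower. Of all miRNAs tested, 21.5% were called in either direction. An FDR of at most 0.1 whatever the fold was reached by 4 of the 7, and by 30.3% of all miRNAs tested. The libraries of the 2 groups did not overlap for 4 of the 7, and for 36.8% of all miRNAs. These counts include bta-miR-20b, which was tested only because of its reads in the subordinate libraries, and they are no support for a pattern among the 9 miRNAs. bta-miR-32 rose about 4-fold, while its seed relatives bta-miR-25 and bta-miR-92b did not pass the thresholds. The 3 products of the miR-106b-25 cluster had log2 fold changes between -0.76 and -0.31. The miRNAs that only the miR-106a-363 cluster can produce had 8 reads or fewer in any library, and bta-miR-20b among them was called lower from 16 reads in all.

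**Figure D1:**
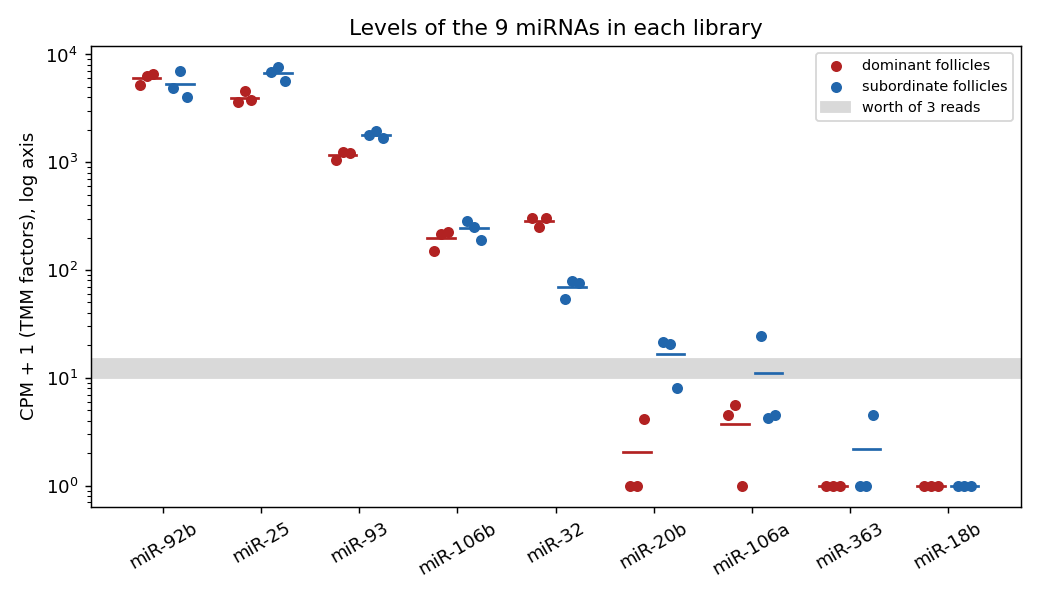
Level of each of the 9 miRNAs in each library, as CPM with TMM factors plus 1 on a log axis. Points are libraries, short lines are means of 3, and the grey band is the worth of 3 reads (8.86 to 13.9 CPM). bta-miR-32 is higher in all 3 dominant than in all 3 subordinate libraries, bta-miR-25 and bta-miR-93 are lower, and bta-miR-20b, bta-miR-106a, bta-miR-363 and bta-miR-18b lie at or under the band in most libraries.

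bta-miR-32, an intronic miRNA of TMEM245, was the miRNA that rose. The authors had already reported this rise from the same libraries, so the values here are a description and no independent support. bta-miR-32 was counted 86, 54 and 96 times in the dominant libraries, against 18, 24 and 21 times in the subordinate ones. The levels were 303, 250.5 and 306 CPM against 53.2, 77.6 and 74.1 CPM, and the lowest dominant library was above the highest subordinate one. Such a gap in the same direction was found for 18.4% of all miRNAs tested. Its log2 fold change was 2.07 (standard error 0.27, FDR = 0.000809 from edgeR's quasi-likelihood test), that is 2.27 above the median of all miRNAs, and it remained called under every alternative tried, with values between 1.91 and 2.28. In a bulk library, more RNA per cell and more cells of a kind that holds the miRNA cannot be told apart. The relative spread between replicates was 10.9% in dominant and 19.4% in subordinate follicles, close to the 11.3% and 21.8% that counting alone gives at this depth. bta-miR-32 moved from rank 163 of 353 by mean CPM in subordinate follicles to rank 116 in dominant follicles.

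The libraries of dominant follicles differed among themselves in blood miRNAs. The 3 erythroid markers bta-miR-451, bta-miR-486 and bta-miR-144 summed to 13090, 8246 and 1048 CPM there and to 1512, 1530 and 808 CPM in subordinate follicles, and 2 of the 3 were called higher. In the same order of libraries, bta-miR-32 stood at 303, 250.5 and 306 CPM in dominant and at 53.2, 77.6 and 74.1 CPM in subordinate follicles. The 4 leukocyte markers summed to between 258 and 1115 CPM in dominant and between 408 and 558 CPM in subordinate follicles, with none called; most of this was bta-miR-142-5p, whereas bta-miR-142-3p and bta-miR-223 had 5 reads or fewer in each library. Both endothelial markers, the arms of bta-miR-126, were lower in every dominant than in every subordinate library without being called, at a sum of 73.2 to 293 CPM against 354 to 540 CPM. The 5 theca and stromal markers summed to between 17601 and 27821 CPM and between 21062 and 35748 CPM, respectively, and bta-miR-214 was the 1 called, lower in dominant follicles. The part of these cells in the differences described here was not tested.

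The miR-106b-25 cluster, whose products come from 1 host gene, was lower in dominant follicles in its abundant members, by less than the fold threshold. bta-miR-25 was counted 1034, 979 and 1183 times in the dominant libraries, against 2341, 2373 and 1604 times in the subordinate ones. This equals 3985 ± 485 CPM against 6749 ± 1017 CPM (SD, n = 3 each), without overlap between the groups, a gap that 18.4% of all miRNAs showed in this direction. The log2 fold change was -0.76 (standard error 0.18, FDR = 0.0199 from edgeR's quasi-likelihood test), so that the FDR passed and the fold threshold did not, and relative to the median of all miRNAs it was -0.56. bta-miR-93, which carries the miR-17 seed, was counted 299, 268 and 380 times in the dominant libraries. Its 600, 602 and 474 reads in the subordinate libraries gave 1797 ± 139 CPM against 1169 ± 100.4 CPM (SD, n = 3 each), again without overlap. The log2 fold change of bta-miR-93 was -0.62 (standard error 0.18, FDR = 0.0414 from edgeR's quasi-likelihood test), likewise short of the fold threshold, and -0.42 relative to the median. An FDR of at most 0.1 in this direction, whatever the fold, was reached by 14.2% of all miRNAs. For bta-miR-25 the FDR stayed under 0.1 in every alternative, at 0.0958 without a composition factor. For bta-miR-93 it was 0.216 without a composition factor, 0.116 without dominant replicate 1, 0.110 without subordinate replicate 1 and 0.107 without subordinate replicate 2.

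bta-miR-106b, the least abundant product of this cluster, was counted 42, 46 and 71 times in the dominant libraries, against 96, 78 and 54 times in the subordinate ones. At 196 ± 41.8 CPM against 242 ± 47.3 CPM (SD, n = 3 each) the groups overlapped. Its log2 fold change was -0.31 (standard error 0.27, FDR = 0.450 from edgeR's quasi-likelihood test). The 95% interval ran from -0.93 to 0.32, which includes the estimates for both neighbours. The sign of all 3 fold changes of the cluster was negative in every alternative, the one without a composition factor included. Levels of different miRNAs can be compared only roughly, because adapters are known to be joined to some sequences more readily than to others. With that limit, bta-miR-25 stood above bta-miR-93, and bta-miR-93 above bta-miR-106b, in every library.

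bta-miR-92b, a single gene product with the miR-92 seed, was among the abundant miRNAs and showed no detectable difference. The dominant libraries gave 1488, 1364 and 2048 reads, and the subordinate ones 1646, 2182 and 1153. The levels were 6032 ± 684 CPM and 5329 ± 1548 CPM (SD, n = 3 each), and the subordinate libraries enclosed the range of the dominant ones. The log2 fold change was 0.18 (standard error 0.23, FDR = 0.586 from edgeR's quasi-likelihood test). Its 95% interval from -0.34 to 0.69 lay within the fold threshold on both sides. The spread of 29.1% between the subordinate replicates was far above the 2.45% that counting alone gives, whereas that between the dominant replicates was 11.3%. bta-miR-92b ranked 27 of 353 in dominant and 29 in subordinate follicles.

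The 4 miRNAs that are specific to the miR-106a-363 cluster were at or near the limit of detection. bta-miR-20b was counted 0, 0 and 1 times in the dominant libraries, against 7, 6 and 2 times in the subordinate ones. All subordinate libraries lay above all dominant ones, a gap that 18.4% of all miRNAs showed in this direction. It rests on 7.06 CPM in subordinate replicate 3 against 3.18 CPM in dominant replicate 3, both under the worth of 3 reads. The ratio of subordinate to dominant follicles was 13.1 with a 95% counting interval from 2.01 to 551 (exact conditional interval, which covers counting error only). The fitted log2 fold change of -3.31 (standard error 0.97, FDR = 0.0417 from edgeR's quasi-likelihood test) depends on the prior count and ranged from -5.23, without dominant replicate 3, to -2.84, without dominant replicate 1. bta-miR-20b passed the filter only through the subordinate libraries. The call was lost without dominant replicate 1 (FDR = 0.121), without dominant replicate 2 (0.108), without subordinate replicate 1 (0.106) and in DESeq2 (0.107). bta-miR-20b is nearly identical to bta-miR-20a, with 38, 31 and 40 reads against 169, 148 and 85, and reads of one may have been counted on the other.

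bta-miR-106a, a near copy of bta-miR-17-5p, was counted 1, 1 and 0 times in the dominant libraries, against 8, 1 and 1 times in the subordinate ones. Subordinate replicate 1 thus held 8 of the 10 subordinate reads, and the groups overlapped. The ratio of subordinate to dominant follicles was 4.37, with a 95% counting interval from 0.930 to 41.0. The fitted log2 fold change was -1.90 (standard error 1.14, FDR = 0.267 from edgeR's quasi-likelihood test) and -0.38 without subordinate replicate 1. bta-miR-363, with the miR-92 seed, had 1 read, in subordinate replicate 3, and bta-miR-18b, with the miR-18 seed, had no read among the 1763451 reads of the 6 libraries. Neither could be tested. A count of 0 over all libraries allows up to 1.70 CPM without TMM factors.

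The same cluster also holds the second genes for miR-92a and miR-19b, for which reads were plentiful but could not be assigned to 1 gene. The row of bta-miR-92a under the MIR92A-2 precursor held 84.0 ± 0.160% of the count of the row under the MIR92A-1 precursor in dominant follicles. For the subordinate libraries this was 86.4 ± 0.900% (SD, n = 3 each). For bta-miR-19b, the row of the miR-17-92 precursor held 98.6 ± 0.563% and 95.9 ± 1.74% of that of the miR-106a-363 precursor. Most of these reads were thus counted under both precursors, and they do not tell from which cluster they came.

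**Figure D2:**
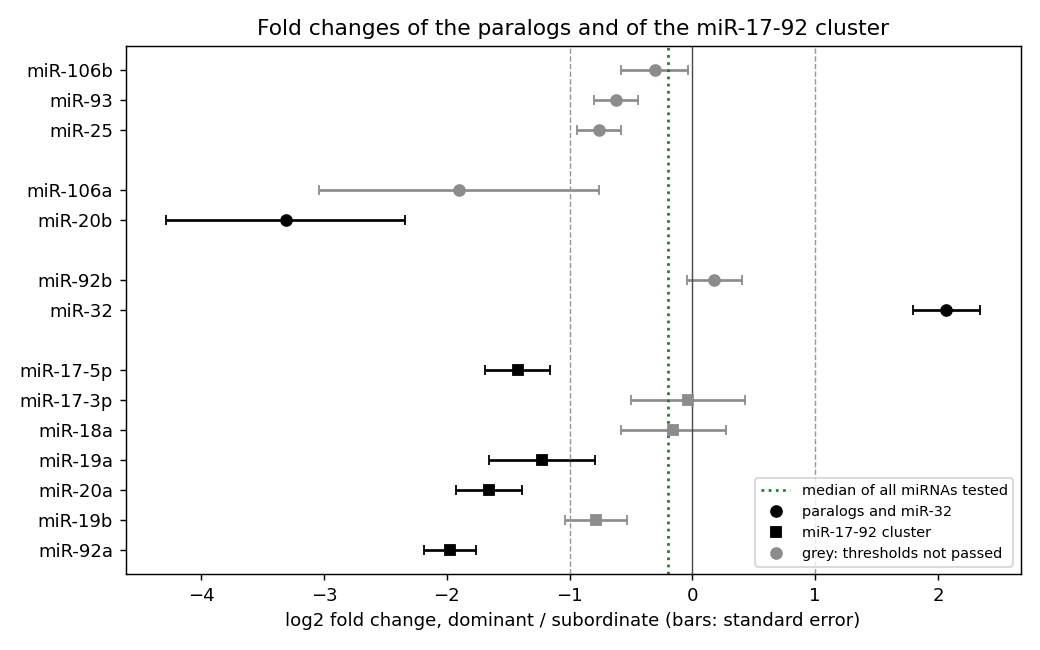
Log2 fold change between dominant and subordinate follicles with its standard error, for the 7 paralogs that were tested and for the 7 products of the miR-17-92 cluster. Black symbols passed the thresholds and grey ones did not, dashed lines mark a log2 fold change of 1 in size, and the dotted line is the median of all 353 miRNAs (-0.20). bta-miR-32 at 2.07 and bta-miR-92a at -1.97 lie on opposite sides although they share a seed.

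The miR-17-92 cluster served as the comparison, as its products are the closest relatives of these miRNAs. The authors had already reported this cluster as lower in dominant follicles from the same libraries, so its counts are a description and no independent support. Of its 7 mature miRNAs, 4 were called lower in dominant follicles, where 9.63% of all miRNAs were, and none higher, in edgeR as in DESeq2. The count was 3 without a composition factor and at an FDR of 0.05, in each case through the loss of bta-miR-19a. No product had a higher level at an unadjusted p under 0.05 by either tool. The median log2 fold change was -1.23 in this cluster and -0.20 over all miRNAs tested. bta-miR-92a had 11133 ± 1405 CPM in dominant and 43761 ± 11488 CPM in subordinate follicles (SD, n = 3 each), a log2 fold change of -1.97 (standard error 0.21, FDR = 0.000270 from edgeR's quasi-likelihood test). For bta-miR-17-5p and bta-miR-20a the log2 fold changes were -1.42 and -1.66. That of bta-miR-19a was -1.23, and its call was lost without a composition factor (FDR = 0.167 from edgeR's quasi-likelihood test) and when any 1 library except subordinate replicate 3 was left out. bta-miR-19b had a log2 fold change of -0.79 and was not called, and neither were bta-miR-18a (-0.15) and bta-miR-17-3p (-0.03), each with between 7 and 24 reads per library and a fold change that turned positive without a composition factor.

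To compare relatives without any normalization, the log2 ratio of the reads of 2 miRNAs was taken within each library after adding 1 read to both. Of 15 planned pairs, 11 had enough reads (5 or more of both miRNAs in 3 or more libraries). The groups did not overlap for 9 of the 11, and for 8 when 0.5 reads were added. In CPM, the groups did not overlap for 36.8% of all single miRNAs tested, and the share among other pairs was not computed. Several ratios share a miRNA and are not independent, so this count is no support for a pattern. With 3 libraries against 3 the exact permutation test cannot go below p = 0.1, which becomes 0.122 when adjusted over the 11 ratios, so no single ratio could pass a threshold of 0.05. The values are therefore read by their size and their spread.

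Within the miR-92 seed the 4 measured miRNAs changed by different amounts, with bta-miR-32 and bta-miR-92a at the ends. bta-miR-92a, the most abundant of the 4, fell and bta-miR-32, the least abundant, rose. The levels of these miRNAs thus lay closer together in dominant follicles. The log2 ratio of bta-miR-32 to bta-miR-92a was -5.26 ± 0.33 in dominant and -9.24 ± 0.43 in subordinate follicles (SD, n = 3 each), a shift of 3.98 (standard error 0.31) or 15.8-fold. For bta-miR-92b to bta-miR-92a the shift was 2.16 (standard error 0.16). For bta-miR-25 to bta-miR-92a it was 1.19 (standard error 0.12). bta-miR-32 also gained on bta-miR-25 by 2.79 (standard error 0.29) and on bta-miR-92b by 1.82 (standard error 0.29). bta-miR-92b gained on bta-miR-25 by 0.97 (standard error 0.16), so that bta-miR-92b exceeded bta-miR-25 in the 3 dominant libraries and bta-miR-25 exceeded bta-miR-92b in the 3 subordinate ones. The groups did not overlap in any of these 6 ratios, which are built from only 4 miRNAs and are not independent.

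The neighbours of the miR-106b-25 cluster shifted much less against each other. The log2 ratio of bta-miR-93 to bta-miR-25 was -1.76 ± 0.12 in dominant and -1.90 ± 0.12 in subordinate follicles (SD, n = 3 each), and the groups overlapped (exact permutation test, p = 0.3). Within pairs of libraries with the same replicate number the shifts were 0.18, 0.11 and 0.12, all in 1 direction, which gives p = 0.25 in the exact sign-flip test, the smallest that 3 pairs allow. The ratio of bta-miR-106b to bta-miR-93 differed by 0.32 (standard error 0.18) with overlap (exact permutation test, p = 0.2). bta-miR-106b gained on bta-miR-25 by 0.45 (standard error 0.19), and here the lowest dominant value of -4.589 lay just above the highest subordinate value of -4.594, an order that was lost when 0.5 reads were added. Against bta-miR-17-5p, the miR-17-92 product with the same seed, the shifts were larger. Relative to bta-miR-17-5p, bta-miR-106b gained 1.09 (standard error 0.28) and bta-miR-93 gained 0.77 (standard error 0.21) in dominant follicles, both without overlap. The log2 fold changes in CPM were all negative, at -0.31 for bta-miR-106b, -0.62 for bta-miR-93 and -1.42 for bta-miR-17-5p. The gains thus come from the larger fall of bta-miR-17-5p. The authors had already reported that fall from the same libraries, so these gaps are no independent support.

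**Figure D3:**
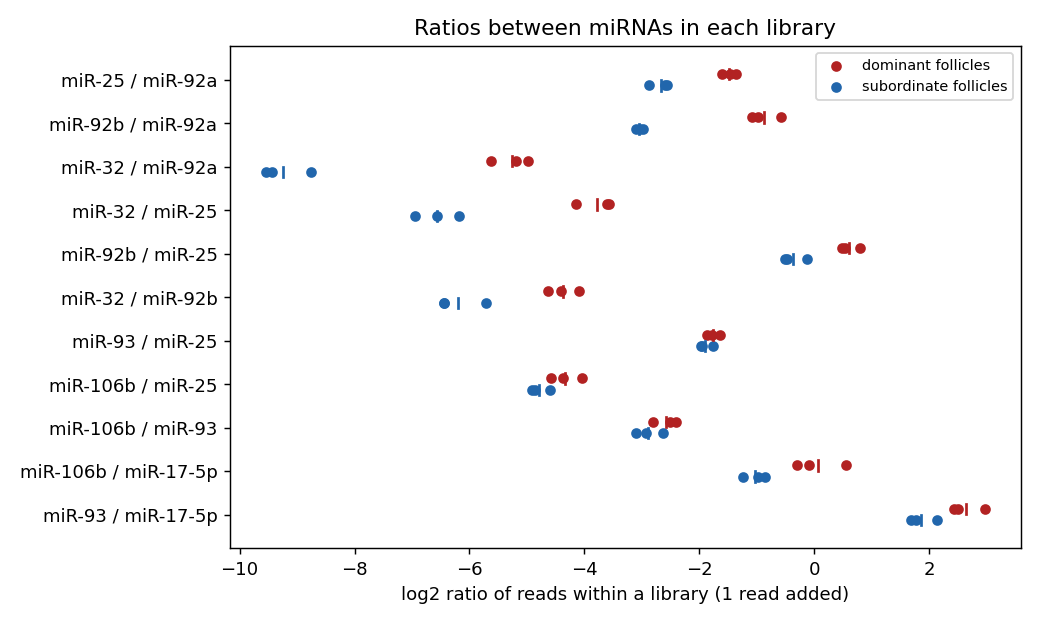
Log2 ratio of the reads of 2 miRNAs within each library, after adding 1 read to both, for the 11 pairs with enough reads. Points are libraries and short lines are means of 3. The ratios of bta-miR-32, bta-miR-92b and bta-miR-25 to bta-miR-92a are shifted by 3.98, 2.16 and 1.19 towards dominant follicles, whereas the ratio of bta-miR-93 to bta-miR-25 is shifted by 0.14 and overlaps.

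Summed over all miRNAs with the miR-92 seed, the level was 21437 ± 1904 CPM in dominant and 55908 ± 14004 CPM in subordinate follicles (SD, n = 3 each), 2.61 times higher in the latter. bta-miR-92a alone made up 94.7% of that difference. bta-miR-92a held 51.9 ± 3.63% of the family in dominant and 78.1 ± 0.921% in subordinate follicles. The share of bta-miR-92b was 28.2 ± 3.42% against 9.48 ± 0.442%. bta-miR-25 held 18.6 ± 0.653% against 12.3 ± 1.26%, and bta-miR-32 held 1.35 ± 0.253% against 0.127 ± 0.0391% (SD, n = 3 each). Even after its rise bta-miR-32 was thus the smallest of the 4 parts. Without bta-miR-92a, the rest of the family summed to 10304 ± 990 CPM and 12147 ± 2517 CPM (SD, n = 3 each), and these ranges overlapped. bta-miR-367, another miRNA with this seed, had no read.

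Among miRNAs with the miR-17 seed, bta-miR-93 was the largest part in every library. It held 69.1 ± 1.26% of the family sum in dominant and 60.4 ± 4.51% in subordinate follicles (SD, n = 3 each). The sum was 1692 ± 156 CPM and 2993 ± 391 CPM (SD, n = 3 each), a ratio of 1.77, and bta-miR-93 made up 48.3% of the difference against 24.1% for bta-miR-17-5p and 22.4% for bta-miR-20a. bta-miR-106b held 11.5 ± 1.72% against 8.06 ± 0.897% (SD, n = 3 each). The paralogs of the miR-106b-25 cluster thus carried most of the reads with this seed in both kinds of follicle. The miR-18 seed was represented by bta-miR-18a alone, at 31.9 ± 3.43 CPM and 35.6 ± 11.5 CPM (SD, n = 3 each).

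**Figure D4:**
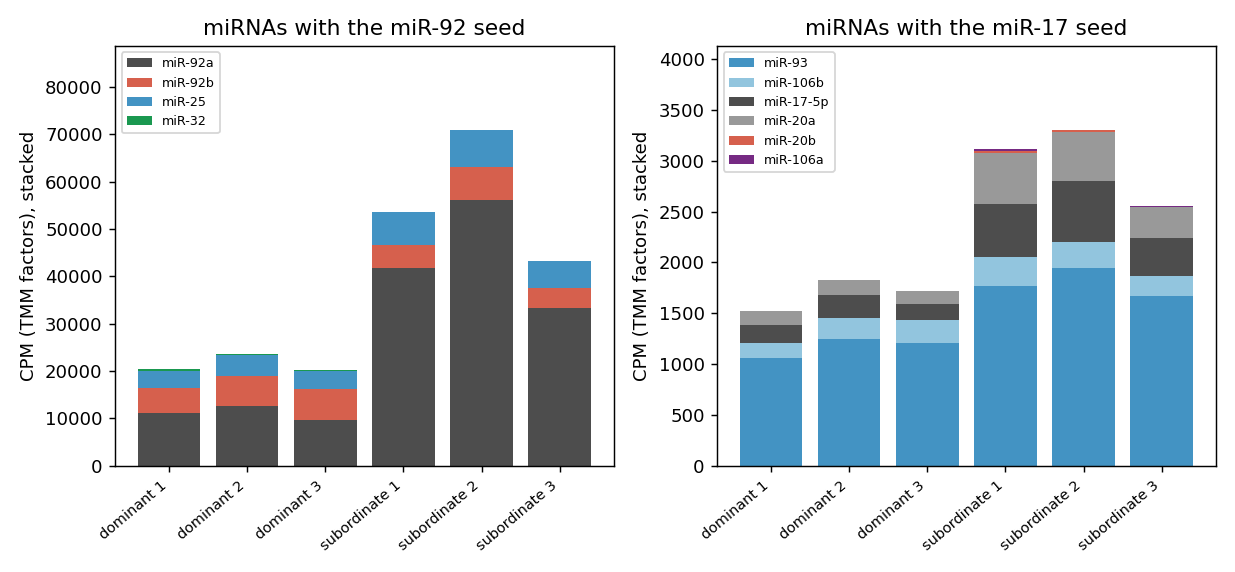
CPM with TMM factors of the miRNAs with the miR-92 seed (left) and with the miR-17 seed (right), stacked per library, with each panel on its own scale. In the left panel the block of bta-miR-92a shrinks from a mean of 43761 CPM in subordinate to 11133 CPM in dominant follicles while the blocks of bta-miR-92b and bta-miR-25 change less. In the right panel bta-miR-93 is the largest block in each library.

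Ordered by level, with the same limit on comparing miRNAs, the well-measured members ran bta-miR-92b, bta-miR-25, bta-miR-93, bta-miR-32 and bta-miR-106b in dominant follicles. Among the subordinate libraries the order was bta-miR-25, bta-miR-92b, bta-miR-93, bta-miR-106b and bta-miR-32. By CPM the neighbours bta-miR-92b and bta-miR-25 overlapped among the subordinate libraries, where bta-miR-92b reached 7057 CPM and bta-miR-25 fell to 5660 CPM. For all other neighbours in either order the ranges of the 3 libraries did not overlap, although in dominant follicles the lowest bta-miR-32 value of 250.5 CPM was close to the highest bta-miR-106b value of 226 CPM.

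Outside these lists, the miRNAs whose log2 CPM followed that of bta-miR-32 most closely over the 6 libraries were bta-miR-424-5p, bta-miR-182 and bta-miR-183, among the 117 miRNAs that averaged 50 or more reads. For bta-miR-25 they were bta-miR-423-3p, bta-miR-6119-5p and bta-miR-296. The measure was Pearson's correlation, and as the 6 libraries form 2 groups it mainly ranks miRNAs by how cleanly they separate them. bta-miR-424-5p had a log2 fold change of 2.53, close to that of bta-miR-32, whereas those of bta-miR-182 and bta-miR-183 were 6.55 and 7.06. The 3 that followed bta-miR-25 had log2 fold changes of -0.85, -1.14 and -2.41.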

How the data were processed

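The deposited values are raw read counts, 906 per library, with 1 row for every combination of mature and precursor miRNA. The authors clipped adapters, filtered reads by quality and length, aligned them to the bovine genome (UMD3.1 in the submitters' processing notes, which also name CASAVA 1.8.0 and Bowtie) and counted known miRNAs with miRDeep2. The number of mismatches allowed is not given in the sources used here, so counts of near-identical miRNAs are uncertain. For each mature name the largest precursor row was used; each of the 9 miRNAs has 1 row. edgeR 4.0.16 (R 4.3.3) was run on the counts with TMM factors and follicle type as the only term, with Benjamini-Hochberg adjustment. Standard errors were derived from the log2 fold change and the quasi-likelihood F (its size over the root of F), and intervals use its degrees of freedom. edgeR was tested on simulated data. Ratios and figures used Python 3.11.15, scipy 1.17.1 and matplotlib 3.10.9. Gene neighbours came from RefSeq (ARS-UCD2.0), whose build differs, so no coordinates are given. Every miRNA of the 9, of the miR-17-92 cluster and of the marker lists was named, plus the 3 most like bta-miR-32 and bta-miR-25. Members and lists were chosen with earlier results of these data known. The labels give both groups the same replicate numbers, and same-numbered libraries deviated together from their group means (correlations over 194 miRNAs of 0.14, 0.38 and 0.41, against -0.42 to 0.19 for differently numbered ones, of which dominant 2 with subordinate 1 was above the lowest same-numbered value). Neither the labels nor the paper states that same-numbered libraries come from the same animals. A pairing was therefore possible but not established. The unpaired fit was kept as the reported one, and a blocked fit was made as an alternative. The alternatives were DESeq2 1.42.0, other size factors, other filters, summed precursor rows, each library left out in turn and an FDR of 0.05.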

Additional observations from a re-analysis of the deposited data

How the results depend on the processing

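Calls of bta-miR-32 did not change under any of the 15 alternatives. The number of these miRNAs called lower, 1 in the reported fit, was 0 in DESeq2, with filterByExpr and with at least 10 reads in at least 3 libraries, and 0 to 1 when 1 library was left out. At an unadjusted p under 0.05, 3 were lower in DESeq2 and 2 with either filter, which removed bta-miR-20b and bta-miR-106a. Over all miRNAs, leaving out 1 library gave between 22 (without dominant replicate 1) and 38 (without dominant replicate 3) called lower, against 34. bta-miR-17-3p turned to 0.15 and bta-miR-18a to 0.064 without a composition factor, and they ranged from -0.61 to 0.28 and from -0.33 to 0.13 with 1 library left out; the cause was not tested. With the replicate block, bta-miR-32 had 2.07 (FDR = 0.0017 from edgeR's quasi-likelihood test) and bta-miR-20b -3.23 (FDR = 0.0984, same test). The block changed no call of the 9 miRNAs or of the miR-17-92 cluster, but bta-miR-20b passed only just under the FDR limit of 0.1. The blocked FDR of bta-miR-93 was 0.0588 (same test). In the ratios, all 99 alternative values kept their direction, and the exact sign-flip permutation test within pairs cannot go below p = 0.25. Depth limits the 4 miRNAs of the miR-106a-363 cluster.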
